A study of Rattus norvegicus with 2 samples.

Results

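The genes described here encode NF-kB transcription factor subunits and inhibitors and feedback regulators that NF-kB itself switches on. They are 10 genes (Rela, Relb, Nfkb1, Nfkb2, Nfkbia, Nfkbie, Nfkbiz, Tnfaip3, Birc3 and Tnfaip2), taken as the non-control probes whose gene name on the array is one of these symbols. That rule gave 11 of the 45598 non-control probes, with 2 for Nfkb1 and 1 for each other gene. All 10 genes were well above background on both arrays, and so belong to the 13062 genes measured on both, of 27234 genes named. They were measured in IEC6, an epithelial cell line from rat small intestine, grown on dishes in DMEM with 10% fetal calf serum and treated in DMEM with 0.1% serum. Control cells received H2O for 60 min, and treated cells received Na2S3 (sodium trisulfide, an inorganic polysulfide that carries reactive sulfane sulfur) for 60 min. The labels disagree on the dose, which is 100 µM in the treatment label but 100 mM in the protocol, and this was not settled here. Each group was 1 RNA sample on 1 single-colour Agilent array. There were no replicates, so no test was possible, and "higher" or "lower" describes this pair of arrays.

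NF-kB proteins act as dimers of Rel-family subunits. In resting cells the dimers are held in the cytoplasm by I-kappa-B proteins, which the I-kappa-B kinase complex marks for destruction when cytokine or microbial receptors are engaged, and the freed dimers then enter the nucleus. Among the genes they switch on are those of their own inhibitors, so the response limits itself, and rising transcripts of Nfkbia or Tnfaip3 are a common early readout of the pathway. In intestinal epithelium NF-kB is known both for inflammatory gene expression and for keeping the epithelial barrier intact.

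The kappa-B consensus motif, a 10-base sequence beginning with GGG and ending with CC that NF-kB dimers bind, was searched on both strands of the promoters in the RefSeq table of the GRCr8 assembly. These sequences are shown because feedback genes of the pathway are known for such sites near their starts. Of the 10 genes, 8 were in the table. In the 250 bases before the start, 5 of the 8 had a match, against 1185 of all 33469 promoters (3.54%), and with the 50 bases after the start included it was 6 of 8 against 4.18%. Each match is given with 10 flanking bases on either side, 5′ to 3′ on the gene's own strand, with the motif in capitals. The motif of Nfkbia and the middle and nearest of Tnfaip3 lie on the opposite strand. They therefore begin here with GG and end with CCC.
Nfkbia: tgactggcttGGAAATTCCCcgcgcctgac
Nfkbiz: tttttggcctGGGAATTTCCagcgtgtgga
Nfkbie: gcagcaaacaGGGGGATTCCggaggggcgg
Nfkb2: tggtattttcGGGACTTTCCtaagagcact
Nfkb1: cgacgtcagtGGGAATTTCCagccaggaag
Tnfaip3, farthest from the start: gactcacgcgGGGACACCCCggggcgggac
Tnfaip3, middle: tcacgtgactGGAAAGTCCCtcggaaatcc
Tnfaip3, nearest to the start: aaagtccctcGGAAATCCCCctgtggcgaa

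In GRCr8 these stretches lie at chr6:78597084-78597113 (Nfkbia, minus strand), chr11:58251698-58251727 (Nfkbiz, plus), chr9:22948017-22948046 (Nfkbie, minus), chr1:255108344-255108373 (Nfkb2, plus) and chr2:226805440-226805469 (Nfkb1, minus). Those of Tnfaip3, on the minus strand, lie at chr1:15544130-15544159, chr1:15544027-15544056 and chr1:15544015-15544044, and the last 2 overlap. Counted from the gene's start in the table, the first base of the motif was at -31 in Nfkbia, -13 in Nfkbiz, -164 in Nfkbie and -20 in Nfkb2, and at 4 in Nfkb1, counting the start as 1. Tnfaip3, with 3 matches, had them at -170, -67 and -55. Rela and Tnfaip2 had no match in this window, which says only that these letters are not there. Relb and Birc3 were not among the promoters matched. The RefSeq gene row itself covers all 250 bases before the table's start in Nfkb1, Nfkb2 and Tnfaip2 and 235 of them in Nfkbia, so the table's start is not the outermost one there. A match is a description of letters and not evidence of binding.

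Rela, Relb, Nfkb1 and Nfkb2, the 4 subunit genes among the 10, differed little between the arrays. Their log2 ratios were 0.10 to 0.26 for Na2S3 over water after each array was scaled to its 75th percentile. None reached 2-fold. Signals are Agilent processed signals in intensity units, of which the 75th percentile was 413 on the water array and 478 on the Na2S3 array. The error of a ratio is the SD of single-spot log2 ratios around their probe's mean, taken from other probes spotted 10 times at similar signal. It covers spot noise only, since every probe of the 10 genes was spotted 1 time and nothing measures the spread between cultures or arrays.

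Rela, the p65 subunit that carries the main transactivation domain of the classical pathway, gave 2238 units in the water array and 2797 in the Na2S3 array. After scaling, its log2 ratio was 0.11 ± 0.09 (spot SD, 1 array per group). Its probe lies at chr1:208272360-208272419 in rn4, the build the files name. Relb, the subunit of the alternative pathway that pairs with the Nfkb2 product p52, gave 2441 and 3386 units. Its log2 ratio of 0.26 ± 0.09 was the highest of the subunit genes. The file places its probe on the unordered part of chromosome 1 in rn4 and names it by a predicted transcript.

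Nfkb2, which encodes p100, the precursor of p52 and itself an inhibitor, gave 824 units with water and 1113 with Na2S3, a log2 ratio of 0.23 ± 0.08. The coordinates of its probe, chr1:251526647-251526839 in rn4, span 193 bases for 60 bases of sequence, so the probe's bases are not contiguous in the genome. Nfkb1, which encodes p105 and its product p50, was read by a pair of probes in different parts of the transcript, and the sequences are given because the pair is the only check between probes that these genes allow. Both are shown 5′ to 3′, with no part in capitals.
Nfkb1 probe A_44_P494130: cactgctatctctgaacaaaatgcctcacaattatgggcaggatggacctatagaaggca
Nfkb1 probe A_44_P1157367: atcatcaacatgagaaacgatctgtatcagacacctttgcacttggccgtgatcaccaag

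The brighter Nfkb1 probe, A_44_P494130 at chr2:233091704-233091763 (rn4, minus strand), gave 459 units with water and 568 with Na2S3, and its log2 ratio of 0.10 ± 0.10 is the value used for the gene. The dimmer one, A_44_P1157367, spans chr2:233100929-233107175, which is 6247 bases for 60 bases of sequence. It gave 60.6 and 76.8 units and a log2 ratio of 0.13 ± 0.19. The probes differed by less than either spot SD, and the Nfkb1 ratio equalled 1 spot SD. Normexp is a background correction that here also added 50 units to every spot, which draws the ratios of dim spots toward 0. With it, the dimmer probe stood at -5.03e-05, and the brighter at 0.11.

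**Figure D1:**
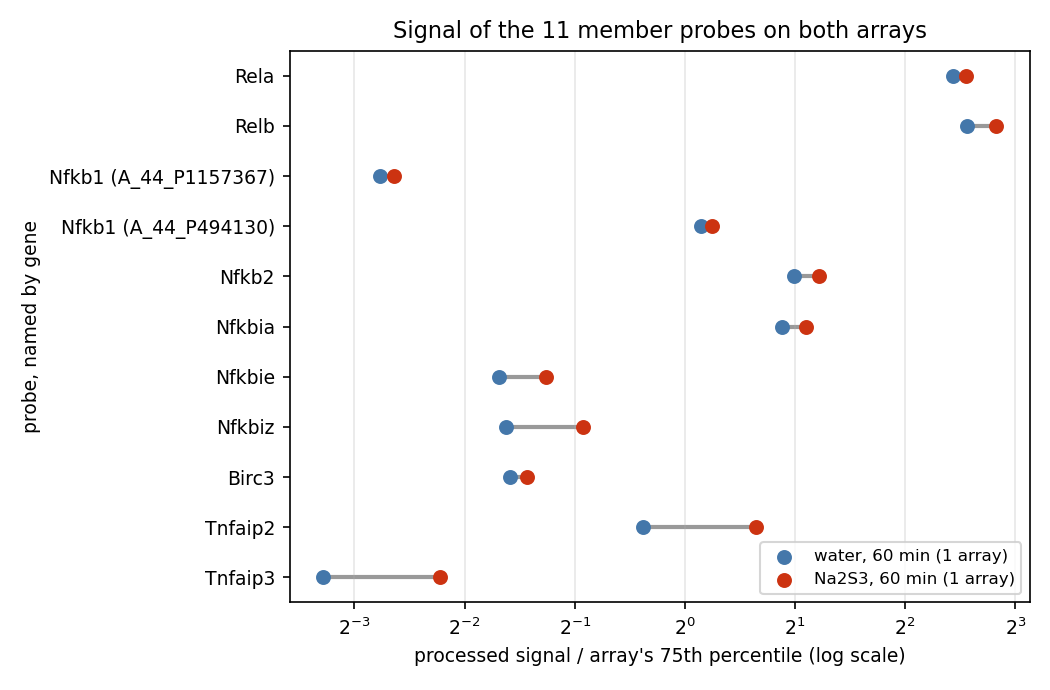
Processed signal divided by the array's 75th percentile (log scale) for each of the 11 probes, with water in blue and Na2S3 in red, 1 array each. Every red point lies to the right of its blue point, with the longest lines for Tnfaip3 (0.103 to 0.214), Tnfaip2 (0.768 to 1.57) and Nfkbiz (0.324 to 0.525). Positions of different probes along the axis do not compare the genes' transcript levels.

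The I-kappa-B genes had log2 ratios of 0.21 (Nfkbia), 0.43 (Nfkbie) and 0.70 (Nfkbiz), and none of the 3 reached 2-fold. Nfkbia, whose product I-kappa-B alpha is the fast feedback inhibitor that pulls dimers back out of the nucleus, gave 763 units with water and 1023 with Na2S3. Its log2 ratio was 0.21 ± 0.08, or 1.16-fold. Over the alternative settings it ranged from 0.18 to 0.26. It is read by a probe with a reading frame free of stop codons, at chr6:75730438-75730497 in rn4 on the minus strand, which is given because Nfkbia is the usual marker of the pathway.
Nfkbia probe A_44_P261450: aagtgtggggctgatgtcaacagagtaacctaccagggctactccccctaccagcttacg

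Nfkbie encodes I-kappa-B epsilon, another cytoplasmic inhibitor with slower feedback. It gave 128 units with water and 199 with Na2S3, a log2 ratio of 0.43 ± 0.16, and 0.25 with normexp. Its probe lies at chr9:11044255-11044314 in rn4. Nfkbiz encodes I-kappa-B zeta, a nuclear member of the family that works with NF-kB on secondary response genes more than it retains dimers. It gave 134 ± 14.1 units with water and 251 ± 25.5 with Na2S3, where the errors are those the scanner software estimates for the spot. This is 1.62-fold, a log2 ratio of 0.70 ± 0.16, and 0.52 with normexp. Nfkbiz, whose probe lies at chr11:45810786-45810845 in rn4, stood at a ratio that 1.95% of the 13062 genes reached or passed. For Nfkbie that share was 5.39% and for Nfkbia 15.3%.

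The remaining genes, known as NF-kB targets that feed back on the pathway or mark it, gave the 2 highest ratios of all 10. Tnfaip3 encodes A20, the ubiquitin-editing enzyme that shuts off signalling to the I-kappa-B kinase. It gave 42.5 ± 5.88 units with water and 102 ± 11.1 with Na2S3 (software error of the spot). After scaling this was 2.08-fold, a log2 ratio of 1.06 ± 0.19, which 0.819% of genes reached or passed. The mean signal of 6.04 on the log2 scale is just above the lower edge of its error class (64 to 128 units), and in the class below (32 to 64 units) the spot SD was 0.34. Normexp brought the ratio to 0.52, under 2-fold, and the other 9 settings gave 1.03 to 1.12. The file leaves this probe unmapped in rn4 and names it by a predicted transcript.

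Tnfaip2, a gene first found as induced by TNF and linked to membrane protrusions, gave 318 ± 32.0 units with water and 748 ± 74.9 with Na2S3 (software error). The scaled value was 2.04-fold, a log2 ratio of 1.03 ± 0.10, which 0.911% of genes reached or passed. Because the ratio lies so near 1, small differences in processing move it across the 2-fold line: it was 0.91 with normexp and 0.99 with background-subtracted signals that were not detrended, and between 1.03 and 1.07 under the other 8 settings. Its probe lies at chr6:136210285-136210344 in rn4.

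Birc3, which encodes cIAP2, a ubiquitin ligase of the TNF receptor complex, had the lowest ratio of this last group. It gave 138 units with water and 177 with Na2S3. The log2 ratio was 0.16 ± 0.16, which is within 1 spot SD of 0, and it was 0.01 with normexp. Its probe lies at chr8:4682606-4682665 in rn4 on the minus strand. The neighbouring gene Birc2, which encodes the related ligase cIAP1, had 0.31 ± 0.08 (699 and 998 units).

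**Figure D2:**
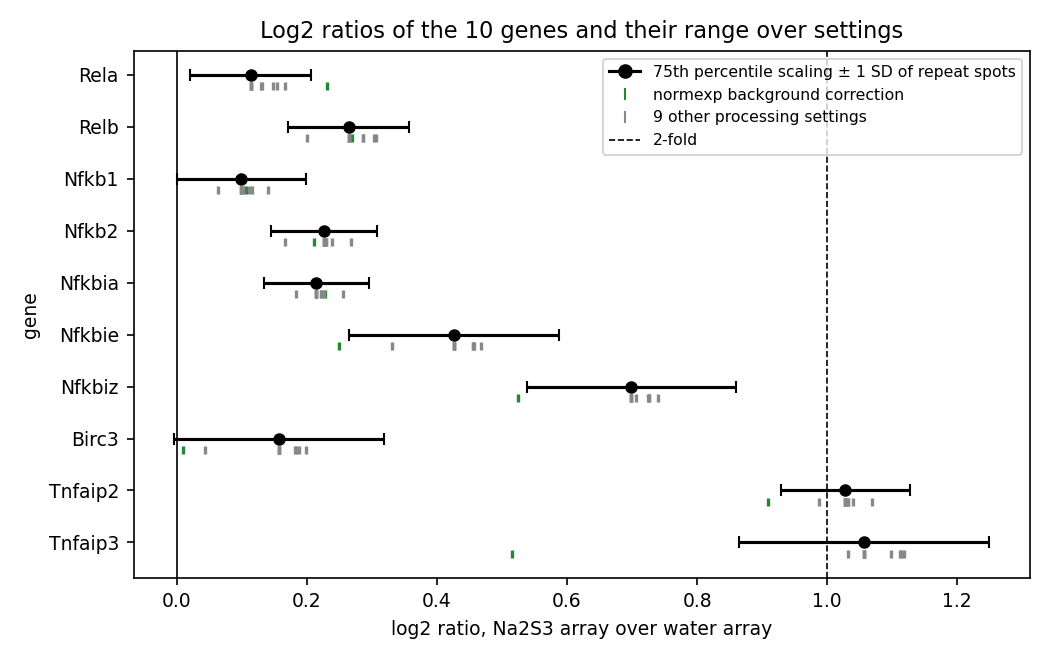
Log2 ratio of the Na2S3 over the water array for each of the 10 genes (black points, bars of 1 spot SD), with the values under 10 alternative processing settings as ticks below each point, normexp in green. Tnfaip2 and Tnfaip3 lie beside the dashed 2-fold line at 1.03 and 1.06, and normexp puts them at 0.91 and 0.52.

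Of the 10 genes, 2 were higher by at least 2-fold with Na2S3, against 0.942% of the 13062 genes measured (123 genes), and 0 were at least 2-fold lower, against 0.62% (81 genes). At least 1.5-fold higher were 3, against 2.96%, and at least 1.5-fold lower were 0, against 3.41%. All 10 had a log2 ratio above 0, as did 43.4% of all genes, and this held under each of the 10 alternative settings. There the share of all genes above 0 ran from 32.8% (no filter on dim probes) to 52.9% (loess). The smallest value of the 10 genes was only 0.0095 (Birc3 with normexp). These settings are not 10 separate checks, since several of them leave the values of the 10 genes almost unchanged. The median of the 10 was 0.25, beside -0.04 over all genes, whose SD was 0.34. In multiples of the spot SD the ratios ran from 0.974 (Birc3) and 1 (Nfkb1) through 1.22 (Rela) to 5.49 (Tnfaip3) and 10.4 (Tnfaip2). Those of Nfkbie, Nfkbia, Nfkb2, Relb and Nfkbiz lay between 2.64 and 4.34. The errors that the scanner software estimates are wider and would make all these multiples smaller. For Nfkbia they were 76.4 on 763 units with water and 102 on 1023 with Na2S3.

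Among all genes the spread of ratios depends on signal, so the same 2-fold line means different things for dim and bright genes. In the class that holds Tnfaip3 (mean signal of 64 to 128 units), 2.82% of 1172 genes were at least 2-fold higher. In that of Tnfaip2 (256 to 512 units) it was 0.884% of 1471 genes. In that of Nfkbiz, Nfkbie and Birc3 (128 to 256 units) it was 1.11% of 1257, and in that of Rela and Relb (2048 to 4096 units) it was 0.594% of 1514.

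**Figure D3:**
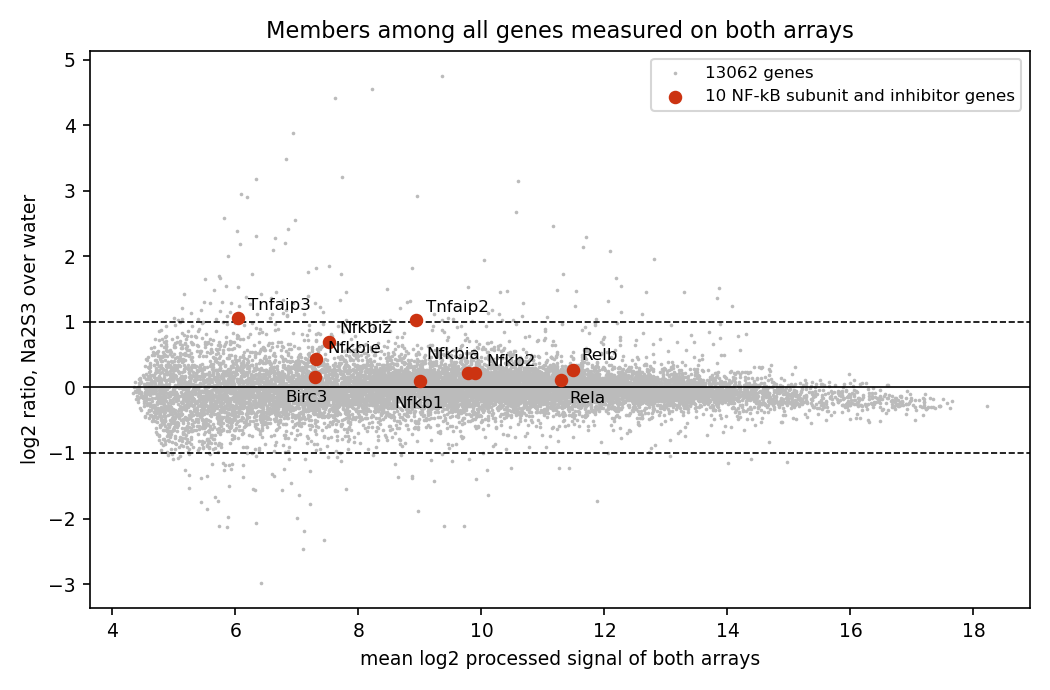
Log2 ratio of the Na2S3 over the water array against the mean log2 processed signal for the 13062 genes measured on both arrays (grey), with the 10 genes in red and dashed lines at 2-fold. Tnfaip3 and Tnfaip2 lie on the upper line, Nfkbiz (0.70) and Nfkbie (0.43) below it, and the other 6 within 0.10 to 0.26.

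The rest of the pathway was read from 5 lists ordered by role. Of 23 receptor and adaptor genes, 19 were measured on both arrays, 0 passed 2-fold either way, 12 were above 0, and the median log2 ratio was 0.04 (-0.02 without detrending). Tnfrsf12a, the receptor for the cytokine TWEAK, had the largest at 0.85 ± 0.07, with 9279 units against 19262. Traf2, an adaptor of TNF receptors, followed at 0.48 ± 0.08, then Tlr5, the flagellin receptor, at 0.41 ± 0.19, and Tirap, an adaptor of toll-like receptors, at -0.29 ± 0.19. Among the receptors of the pathway's best known ligands, Tnfrsf1a had 0.20 and Il1r1 had -0.04, although the 3 probes of Il1r1 ran from -0.04 to 0.74.

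Of the kinase and ubiquitin ligase genes, all 20 were measured, 0 passed 2-fold and the median was 0.07. Of the kinase complex itself, Chuk had 0.16 ± 0.09, with 0.27 at its other probe, Ikbkb had -0.07 and Ikbkg -0.02. Map3k14, the NIK kinase of the alternative pathway, had the largest ratio at 0.60 ± 0.19, from 67.0 units against 117, and 0.29 with normexp. Tab3, an adaptor of the TAK1 kinase, had 0.47 ± 0.16. Xiap had -0.42, but its 5 probes ran from -0.42 to 0.25, and Fbxw11, part of the ligase that marks I-kappa-B, had -0.31, with -0.91 at its other probe.

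Of the other Rel and I-kappa-B family genes, 6 of 7 were measured, 0 passed 2-fold and the median was 0.05, but -0.01 with normexp or without detrending. Rel, the remaining subunit gene of the family, had no probe named for it. Nfkbid, which encodes the nuclear I-kappa-B protein NS, had -0.59 ± 0.10, opposite in sign to its relative Nfkbiz, with -0.11 at its other probe. Bcl3, also nuclear, had 0.10, Nfkbib, the gene of I-kappa-B beta, -0.01, and the inhibitor-binding Ras-like genes Nkiras1 and Nkiras2 had 0.13 and 0.15. The ratio of Nkiras1 was -0.21 at its other probe.

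Of 15 other negative regulators, 14 were measured, 0 passed 2-fold, 9 were above 0 and the median was 0.09. Zc3h12a, the gene of the RNase Regnase-1 that degrades inflammatory transcripts, had 0.83 ± 0.16 (114 units against 234), with 0.54 at its other probe and 0.57 with normexp. Peli1, a ubiquitin ligase gene of toll-like receptor signalling, had 0.67 ± 0.16, and 0.45 with normexp. Irak3, a brake on the same receptors, had 0.34 ± 0.07, and Otud7b, a deubiquitinase gene, 0.22 ± 0.09. Partners of A20 were lower in ratio than Tnfaip3, with Tnip1 at -0.10, Tax1bp1 at 0.09 and Itch at 0.15. Cyld, a separate deubiquitinase of the pathway, had 0.09, and its 4 probes ran up to 0.34.

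Target genes with inflammatory or survival functions were mixed. Of 35 listed, 17 were measured on both arrays, of which 2 were higher and 0 lower by at least 2-fold, 11 were above 0 and the median was 0.12. The 2 were Ptgs2, the inducible cyclooxygenase gene (2.68 ± 0.08, 558 units against 4131), and Cxcl1, a neutrophil chemokine gene (1.48 ± 0.09, 1342 against 4330). Ccl2, a monocyte chemokine gene, had 0.96 ± 0.08 and passed 2-fold with spike-in scaling, and Cxcl10, an interferon- and NF-kB-responsive chemokine gene, 0.78 ± 0.16. Cxcl3, another neutrophil chemokine gene, had 0.77 ± 0.07 (3501 units against 6881, and 0.86 at its other probe), and Ier3, an early response gene, had 0.50. The other measured targets ran from 0.37 (Cflar, with up to 0.77 at its other probes) down to -0.42 (Cebpd), with Icam1 at 0.26, Sod2 at -0.07, Irf1 at -0.12 and Csf1 at -0.37. Lif (13.2 units against 40.6), Ccl7 (11.3 against 32.7) and Csf2 (3.79 against 22.0) passed background with Na2S3 alone. Their lower bounds were 1.92-fold, 1.54-fold and 1.04-fold higher. The bounds make no allowance for spot noise, and at 4 to 32 units the spot SD was 0.60 on the log2 scale. Il6, Tnf, Il1b, Nos2 and Vcam1 were not well above background on either array.

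**Figure D4:**
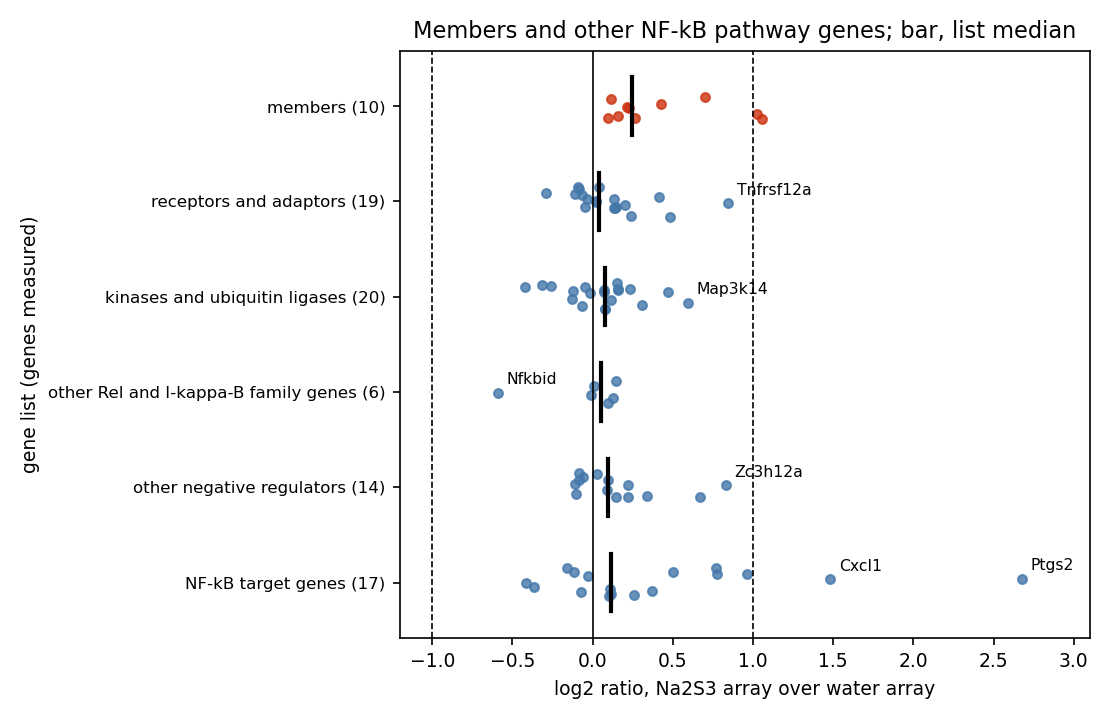
Log2 ratio of the Na2S3 over the water array for the 10 genes (red) and the measured genes of 5 lists of other pathway genes (blue), each point 1 gene, with list medians as black bars and dashed lines at 2-fold. The medians of the lists lie at 0.04 to 0.12 and that of the 10 genes at 0.25, and the spread is widest among target genes, from -0.42 (Cebpd) to 2.68 (Ptgs2).

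Across all measured genes with a promoter in the table, the 391 that held the kappa-B motif before the start had a median log2 ratio of 0.02, and 3 of them (0.767%) were at least 2-fold higher. None of the 391 (0) passed 2-fold in the lower direction. The 9123 without it had a median of -0.03, and 90 (0.987%) were at least 2-fold higher, while 51 passed 2-fold in the lower direction. As only 0.62% of all 13062 genes were at least 2-fold lower, a set of 391 would hold few of them. The set with the motif includes 5 of the 10 genes, and the counts by motif were made after the values of the 10 genes had been seen. Within the 10, the genes past 2-fold were Tnfaip3, with 3 matches, and Tnfaip2, with 0.

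On both arrays about the same share of probes was well above background, 49.5% with water and 49.0% with Na2S3, and 0 spots were saturated. None of the 11 probes was flagged as an outlier. The cells' label was set against markers. Of 12 epithelial markers, 7 were measured, among them Cdh1 (14702 units with water) and Krt8 (15892), while Epcam, Vil1, Cldn4, Cldn7 and Cdx2 were not well above background on either array. Of 10 fibroblast markers 7 were measured, including Col1a1 (71687 units with water) and Vim. Pdgfra, Pdgfrb and Lum were not well above background on either array. Thy1 (128 units with water) and Acta2 (65.8) were dim. Before scaling, the epithelial markers' summed signal was 34732 units with water and 39044 with Na2S3, and the fibroblast markers' 255895 and 276256, on arrays whose 75th percentiles differed by 0.21 on the log2 scale. After scaling, the median log2 ratio was -0.0057 for epithelial and -0.24 for fibroblast markers. Below 0 were Col1a1 at -0.24, Col1a2 at -0.43, Thy1 at -0.35 and Acta2 at -0.27. The other 3 fibroblast markers were near 0, with Col3a1 at 0.03, Vim at 0.02 and Dcn at 0.01. Immune markers had 3 of 10 measured, with scaled log2 ratios of -0.32 for Ptprc (29.2 units with water), -0.27 for Cd68 and 0.07 for Cd14. Their unscaled sum of 2773 and 3330 units was mostly Cd14 (2656 and 3218). Endothelial markers had 3 of 6 measured, Vwf, Tek and Cdh5, with a median of -0.11 and an unscaled sum of 3367 and 3198 units. The part of other cell types in the ratios was not tested.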

How the data were processed

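RNA from each dish was read on an Agilent array with the dye Cy3, per the labels. The deposited scanner files hold intensity values from Agilent Feature Extraction 10.7.1.1, per the file headers, although version 9.5.1.1 stands in the submitters' processing notes. Background was subtracted and spatial trends were removed within each array, per the file headers. The deposited value table also holds linear intensity values, follows each array's processed signal (Pearson r of 0.99997 over probes, log2 scale) and shares a median of 19.3 between columns. How it was normalized is not stated in the sources used here. Its counts equalled those of quantile normalization, with 141 genes at least 2-fold higher and 67 lower in each, so the settings are near duplicates.

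Flagged spots were left out (448 with water, 390 with Na2S3). Spots of one probe were averaged as log2 signal, and the 75th percentile over an array's non-control probes was subtracted. The scaling took out 0.21 on the log2 scale, where the 7 spike-in probes above background gave 0.17. Probes needed more than 50% of spots well above background on both arrays, and a gene took its brightest such probe. Where 1 array alone passed background, a bound was taken against the dim array's lowest value above background, or the dim probe's signal if that was higher. Genes were named through RefSeq accessions (21102 probes) or the file's symbol (14750), and 9746 probes with identifiers only were left out of gene counts. The rule of size was a log2 ratio of 1 or more. From each list the text names up to 4 genes with the largest ratios, and further genes chosen after their values were seen. The ratio calculation was tested on simulated data. Normexp, with an offset of 50 units, and loess came from limma 3.58.1 in R 4.3.3. The 10 genes, the 5 lists and the processing alternatives were chosen with earlier results of these data known.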

Additional observations from a re-analysis of the deposited data

How the results depend on the processing

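With 1 array per group, only processing could be varied. No paired analysis was possible because each group has 1 array. Under 11 alternatives the counts and median of the 10 genes kept within 1.5 times or 1 spot SD in 30 of 32 values: the count at least 2-fold higher, 2, was 0 with normexp and 1 without detrending. Of 100 values of single genes 5 moved by more than their spot SD, all with normexp: Rela to 0.23, Nfkbie to 0.25, Nfkbiz to 0.52, Tnfaip3 to 0.52 and Tnfaip2 to 0.91. Many of the other values could not move far. All 10 genes passed background unflagged and all but Nfkb1 had 1 probe, so the filter, flagged-spot and probe-median settings left them almost unchanged. Median scaling shifted ratios by 1.46e-05, and the deposited table gave nearly the values of quantile normalization. The totals of unmoved values are therefore no measure of robustness. With normexp 61 of all genes were at least 2-fold higher and 31 lower, against 123 and 81, and no scaling moved the median of all genes by more than 0.1. Of 160 values for the lists 14 moved. The receptor and adaptor median of 0.04 was 0.14 with quantile normalization and in the deposited table, 0.15 with loess and 0.13 as a median over probes, and the target gene median of 0.12 was 0.23 with loess, in the deposited table and with quantile normalization. With no filter on dim probes 8 of the 34 target genes with a probe were at least 2-fold higher and 2 lower. At that setting 1062 of all 27234 genes (3.9%) were at least 2-fold higher and 1545 lower. Those added to Ptgs2 and Cxcl1 as higher targets gave only 3.72 to 13.2 units with water. At 4 to 32 units the spot SD was 0.60. A 1.5-fold rule gave 1 higher receptor or adaptor, 1 higher kinase or ligase, 2 higher negative regulators, 5 higher target genes and 1 lower Rel or I-kappa-B family gene. The Rel and I-kappa-B family median of 0.05 was -0.01 with normexp and without detrending and -0.0023 over probes, and the receptor median was -0.02 without detrending. The cause of these shifts was not tested. Tnfaip3 had the lowest signal of the 10 genes, at 42.5 units with water, below the 50 units that normexp added to every spot. How much of the normexp shifts came from that added constant was not tested.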
